A study of Homo sapiens with 2 samples.

Results

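Interferon-stimulated genes and the RNA sensors that act with them were compared in cells with and without the gene MAEL, each condition sequenced as 1 library. The list holds 48 named genes out of 58735 in the deposited count table, and all 48 names were found there. The genes were chosen by name, with their fold changes between these same libraries already known. The list was divided into 35 effectors, which carry out or tune the antiviral state, 8 sensors of viral RNA and 5 transcription factors of the STAT and IRF families, called regulators here. The cells are 8024 (PLC/PRF/5), also labelled Alexander cells, an epithelial liver cancer line that carries integrated hepatitis B virus DNA. MAEL WT is the wildtype genotype, listed as non-treated. MAEL KO carries a knockout of MAEL made with an sgRNA and Cas9, and the methods describe clones raised from single sorted cells. No interferon or other agent is given for either library. Effects of the knockout therefore cannot be told apart from those of clonal origin or of the culture.

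Interferons are secreted when cells sense foreign nucleic acid. RIG-I-like receptors detect viral RNA in the cytoplasm and signal through MAVS and TBK1 to IRF3 and IRF7, which switch on interferon genes. Secreted interferon binds its receptors, and the kinases JAK1 and TYK2 then activate STAT proteins, of which STAT2 joins IRF9 on a promoter element called ISRE (interferon-stimulated response element). The genes switched on in this way include effectors, sensors and regulators, so the system feeds back on itself. Many tumour lines keep part of it active at a low level without added interferon.

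Total counts were 19904136 in MAEL WT and 20833332 in MAEL KO, and the floor of 3 counts corresponds to 0.1507 and 0.144 CPM, which is the count scaled to the total of the library. MAEL itself (ENSG00000143194) had 1 count in MAEL WT and 0 in MAEL KO, so the labels could not be checked by the targeted transcript. All 14 liver cell markers examined had at least 10 counts in both libraries, and their summed level was 14595 CPM in MAEL WT and 28123 CPM in MAEL KO. Of 9 blood cell markers, 3 reached 10 counts in either library, with CD3E and MS4A1 at 0 in both and PTPRC at 3 and 0 counts, and the sum went from 67.9 to 37.1 CPM. Of 7 fibroblast and endothelial markers, 5 reached 10 counts, with sums of 31.4 and 28.0 CPM. These sums hide opposite differences, since 2 of the 5 were lower in MAEL KO and 3 were higher. COL1A1 went from 92 to 11 counts and PDGFRB from 122 to 29, while COL3A1 went from 54 to 136 and CDH5 from 4 to 15. The part of these shifts in the results on interferon-stimulated genes was not tested.

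Many promoters of these genes hold the element that the complex of STAT2 and IRF9 reads. RefSeq promoters of GRCh38.p14, from 250 bases before to 50 bases after the start, were at hand for 36 of the 48 genes. The ISRE core, searched as GAAA, any 2 bases and GAAA, stood on either strand in 23 of these 36 promoters (63.9%), against 3.57% of all 35116 promoters. It was found in 20 of 29 effector promoters, in 3 of 4 sensor promoters and in 0 of 3 regulator promoters. The element called GAS (gamma-activated sequence), which serves the response to interferon gamma and was searched as TTC, any 3 bases and GAA, stood in 9 of the 36 promoters, against 7.66% of all promoters. In BST2 a GAS match overlaps the first ISRE match. The sequences below are 60 bases each, written 5′ to 3′ in the direction of the gene, with ISRE core matches in capitals. They were chosen to show the same core in genes that differed much and in genes that differed little between the libraries, and they run from the lowest fold change (BST2) to the one nearest to 0 (IFITM3).
BST2 (chr19:17405720-17405779, minus strand): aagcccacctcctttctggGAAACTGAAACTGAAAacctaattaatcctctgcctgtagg
IFI6 (chr1:27672251-27672310, minus strand): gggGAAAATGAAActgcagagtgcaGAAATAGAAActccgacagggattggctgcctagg
SAMD9 (chr7:93118081-93118140, minus strand): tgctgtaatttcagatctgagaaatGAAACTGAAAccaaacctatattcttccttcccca
PARP14 (chr3:122680779-122680838, plus strand): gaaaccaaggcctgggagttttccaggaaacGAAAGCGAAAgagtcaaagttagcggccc
ISG15 (chr1:1013365-1013424, plus strand): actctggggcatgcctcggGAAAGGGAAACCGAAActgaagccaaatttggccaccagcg
IFIT1 (chr10:89392495-89392554, plus strand): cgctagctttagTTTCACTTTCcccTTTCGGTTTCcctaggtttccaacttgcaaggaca
OAS3 (chr12:112938414-112938473, plus strand): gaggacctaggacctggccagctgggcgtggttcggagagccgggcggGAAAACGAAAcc
IFITM3 (chr11:320861-320920, minus strand): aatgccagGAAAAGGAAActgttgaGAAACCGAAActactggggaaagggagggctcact
In IFIT1 the core lies on the opposite strand and therefore begins and ends with TTTC. In BST2 and ISG15, a pair of core matches overlap into 1 run of capitals. The stretches of PARP14, ISG15, OAS3 and IFITM3, and the end of that of IFIT1, lie inside the spans that the count table gives for these genes, because the RefSeq starts used here lie further downstream.

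**Figure D1:**
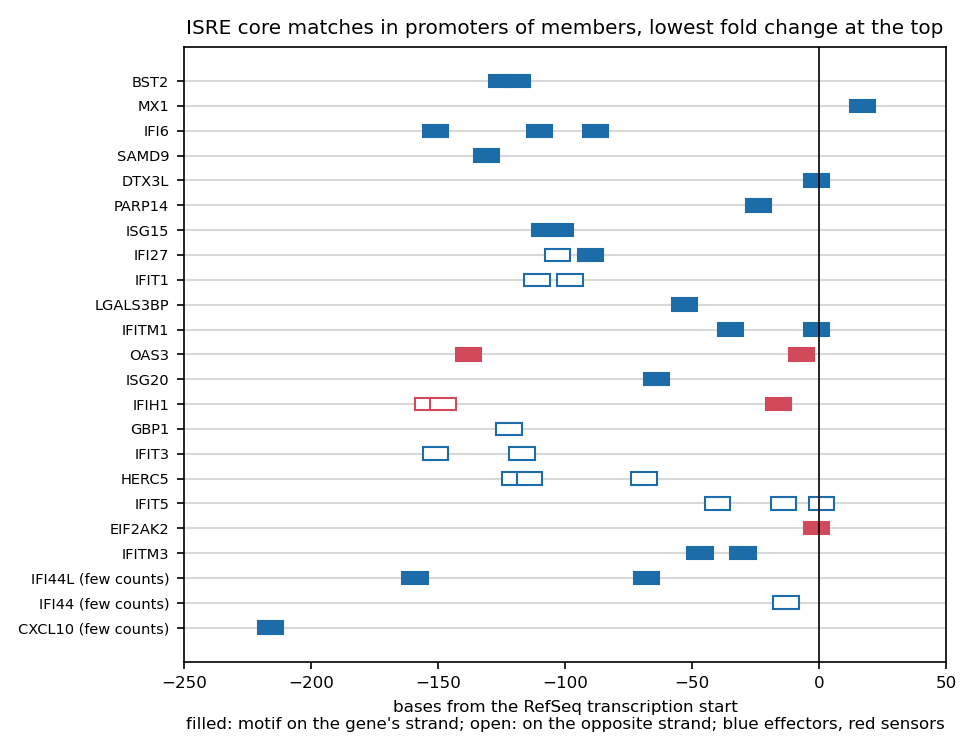
Positions of ISRE core matches (bars) from 250 bases before to 50 bases after the RefSeq start, in bases, for the 23 genes that hold a match, ordered from the lowest log2 fold change at the top to the highest, with genes under 10 counts last. Filled bars are matches on the strand of the gene, open bars are matches on the opposite strand, effectors are blue and sensors red. The match in MX1, at base 12, is the only one that begins after the start.

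Genes with and without the ISRE core overlapped in how much they differed between the libraries. Differences are given as the log2 change, MAEL KO over MAEL WT, after normalization by TMM factors (which correct for a few strongly expressed genes) and addition of 1 to each normalized count. Among the genes with enough counts, the 20 with a core had a median of -1.53, with a range from -6.74 to -0.52. The 10 without a core in this window had a median of -1.72, from -3.71 to -0.34, where the lowest value is that of SAMD9L and depends on the added count. These are descriptions of a short window and say nothing of which factor was bound.

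The list as a whole was lower in MAEL KO. Of the 48 genes, 41 had at least 10 counts in at least 1 library, and 39 of them had a log2 change below 0, against 52.0% of all 17887 genes that met the same limit. A log2 change of -2 or less, which is the fold part of the study's cut-off without its condition on p, was reached by 13 of the 41, against 5.64% of all genes. None of the 41 reached 2, against 2.16% of all genes. At -1 or less there were 26, against 16.5%, and at 1 or more 0, against 10.2%. SAMD9L and OAS2, with 0 counts in MAEL KO, are among the 13 at values whose size is set by the added count of 1. With 0.1 added they were at -6.93 and -6.56, and with 5 added at -1.78 and -1.52. Their bounds do not reach the cut-off. The median log2 change was -1.53, whereas that of all genes was -0.04. When libraries were scaled by their totals, the list was at -1.80 and all genes at -0.31. The list was drawn up with this difference known, so these counts describe it and are not evidence for it. With 1 library per condition there is no replicate error and no p-value, and the 95% intervals given with the fold changes are exact Clopper-Pearson intervals that cover counting error only. In bulk RNA, fewer cells that express a gene and less RNA per cell cannot be told apart.

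Listed genes at -2 or less were also counted by class of the larger count. Among genes whose larger count lay from 10 to below 100, 3 of 10 listed genes were at -2 or less, against 12.4% of all genes in that class. These were MX2, SAMD9L and OAS2, all of which had 10 counts or more in MAEL WT alone, and the bounds of SAMD9L and OAS2 do not reach the cut-off. From 100 to below 500 counts there were 7 of 14, against 4.89%. At 500 counts and above there were 3 of 17, against 1.17%. In these classes too, the listed genes at -2 or less were placed by their MAEL WT counts alone. Their MAEL KO counts lay below the class, so the classes do not remove that selection.

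**Figure D2:**
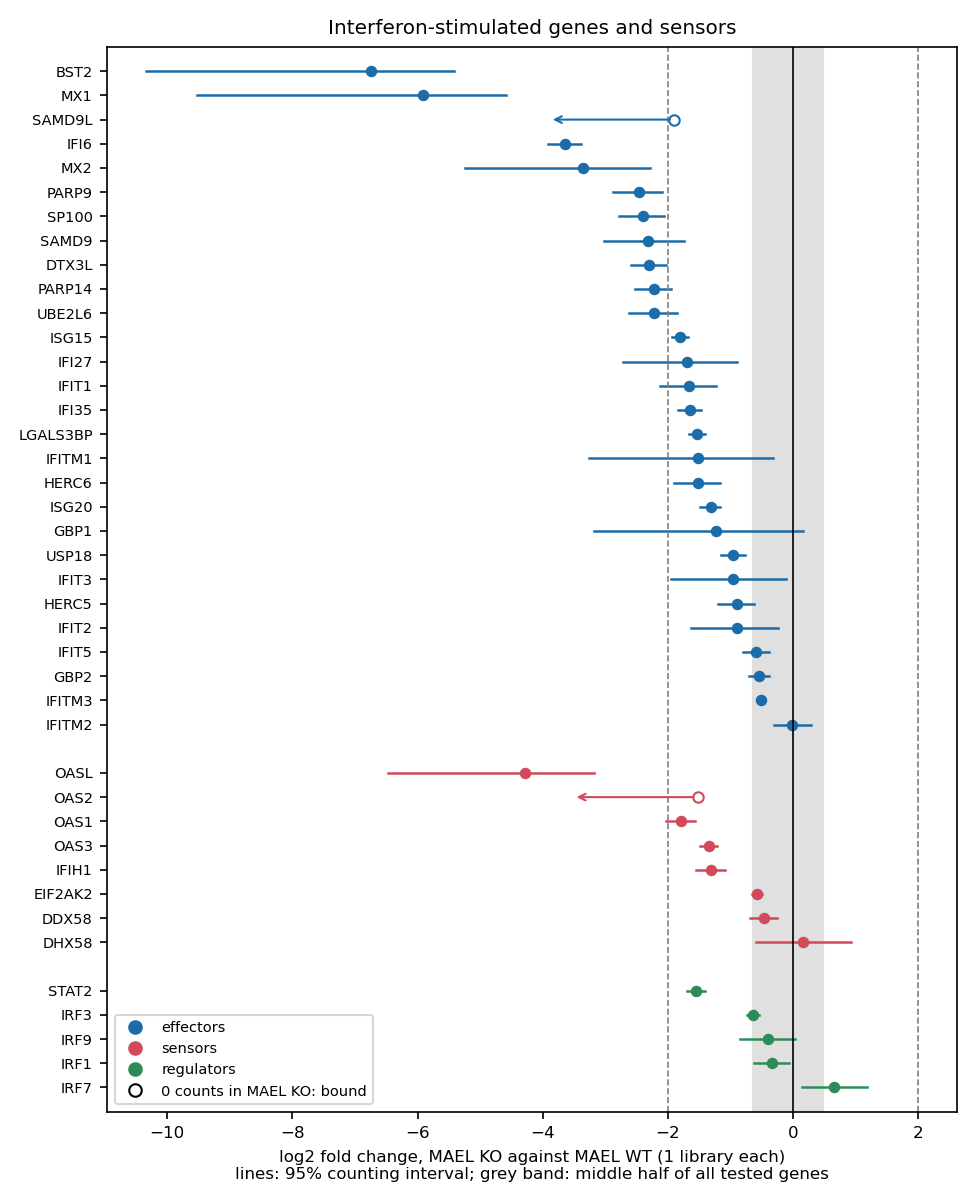
Log2 fold change (x axis) of the 41 genes with at least 10 counts in 1 library, with 95% counting intervals as lines, dashed lines at -2 and 2, and the interquartile range of all tested genes as a grey band. Open circles with arrows are bounds for genes with 0 counts in MAEL KO. BST2 and MX1 lie farthest to the left, the intervals of IFITM2, GBP1, DHX58 and IRF9 include 0, and IRF7 is the gene whose interval lies above 0 with the TMM factors used in this plot.

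Among effectors, the lowest log2 changes were those of BST2 and MX1. All 28 effectors with enough counts were below 0, against 52.0% of all genes, and the median was -1.65. A log2 change of -2 or less was found in 11 of them, against 5.64% of all genes. SAMD9L is among the 11 at a value that depends on the added count, and its bound does not reach the cut-off. BST2 (tetherin, ENSG00000130303, chromosome 19, 17402939 to 17405648, minus strand) holds budding virus particles at the cell surface. It had 361 counts in MAEL WT and 2 in MAEL KO, or 337 and 2.16 after normalization, a ratio of 156 (95% interval 42.9 to 1293). By log2 change it had rank 4 from the lowest among 17887 genes, and nearly all of its signal was in MAEL WT.

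IFITM proteins, which block fusion of virus with the cell membrane, differed unequally. IFITM3 had 8180 and 4939 counts in MAEL WT and MAEL KO, a log2 change of -0.52 (95% interval -0.57 to -0.47). IFITM2 had 203 and 174 counts, and its log2 change of -0.01 (95% interval -0.31 to 0.29) was not distinguishable from 0 at this depth. IFITM1 had 22 and 6 counts, a log2 change of -1.53 (95% interval -3.26 to -0.32). The IFITM1 gene model lies wholly inside that of IFITM2 on the same strand, over 1767 bases, and the IFITM genes are close paralogues, so the split of reads among them is uncertain.

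MX1 and MX2, dynamin-like GTPases that trap viral nucleocapsids, lie side by side on chromosome 21. MX1 had 204 and 2 counts, a ratio of 88.2 (95% interval 24.1 to 733). MX2 had 69 and 5 counts, a log2 change of -3.35 (95% interval -5.24 to -2.28). Both were thus nearly lost from MAEL KO. The guanylate-binding proteins, GTPases that attack the membranes around intracellular pathogens, differed less. GBP2 had 835 and 495 counts, a log2 change of -0.54 (95% interval -0.71 to -0.38). GBP1 had 15 and 5 counts, and its interval of -3.19 to 0.16 included 0.

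IFIT proteins bind viral RNA and hold back its translation. All 4 were lower in MAEL KO, and none reached -2. IFIT1 had 203 and 55 counts, with a log2 change of -1.66 (95% interval -2.13 to -1.24). IFIT5 had 514 and 294 counts, with a log2 change of -0.59 (95% interval -0.81 to -0.39). The IFIT1 and IFIT5 intervals do not overlap. IFIT2 went from 59 to 27 counts and IFIT3 from 37 to 16, log2 changes of -0.89 and -0.96. IFIT1, IFIT2 and IFIT3 lie within the span of LIPA on the opposite strand, and whether counting used strand is not given in the sources used here.

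ISG15 is a ubiquitin-like protein that is attached to other proteins by the carrier UBE2L6 and the ligase HERC5 and removed by USP18, which also damps interferon receptor signalling. All 5 genes of this group were lower, with intervals below 0. ISG15 (ENSG00000187608, chromosome 1, 1001138 to 1014540) had 2581 and 639 counts, a log2 change of -1.80 (95% interval -1.93 to -1.68). UBE2L6 had 364 and 67 counts, a log2 change of -2.22 (95% interval -2.63 to -1.85). USP18 had 751 and 333 counts, a log2 change of -0.96 (95% interval -1.15 to -0.77). The remover of ISG15 thus kept more of its MAEL WT level than the modifier and its carrier, with intervals that do not overlap. HERC5 had 328 and 151 counts, a log2 change of -0.90, and its neighbour HERC6 had 275 and 82, a log2 change of -1.52.

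The IFI genes are classical markers of the response. IFI6, a small membrane protein of mitochondria and endoplasmic reticulum, had 1917 and 132 counts, a log2 change of -3.64 (95% interval -3.92 to -3.39). Its promoter holds 3 ISRE cores, of which the printed stretch shows 2. IFI35 had 1142 and 315 counts, a log2 change of -1.64 (95% interval -1.83 to -1.47), and IFI27 had 55 and 14 counts, a log2 change of -1.70 (95% interval -2.73 to -0.90). IFI6 therefore stood apart from the other genes of this group. IFI44L had 5 counts in MAEL WT and 0 in MAEL KO, and IFI44 had 0 in both.

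SAMD9 and SAMD9L, neighbours on chromosome 7 that restrict poxviruses and limit cell growth, were both lower. SAMD9 had 154 and 26 counts, a log2 change of -2.32 (95% interval -3.02 to -1.75). SAMD9L had 13 and 0 counts, which makes it at least 3.75-fold lower against a floor of 3 counts in MAEL KO, short of the cut-off. ISG20, an exonuclease that degrades RNA, had 1293 and 447 counts, a log2 change of -1.32 (95% interval -1.48 to -1.17). RSAD2, which encodes viperin, had 0 and 1 counts.

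The ADP-ribosylation genes differed by nearly the same amount. PARP9 forms a complex with the ubiquitin ligase DTX3L, and PARP14 is a further ADP-ribosyltransferase coded close by on chromosome 3. PARP9 had 412 and 64 counts, a log2 change of -2.46 (95% interval -2.88 to -2.09). DTX3L had 698 and 122 counts, a log2 change of -2.30 (95% interval -2.60 to -2.03). PARP14 had 643 and 118 counts, a log2 change of -2.23 (95% interval -2.53 to -1.95). Their intervals overlap one another, and all 3 genes passed the cut-off. The intervals of PARP14, SAMD9 and UBE2L6 include the cut-off itself. PARP9 and DTX3L share 340 bases on opposite strands.

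Among the remaining effectors, SP100, a component of nuclear bodies that silence incoming viral DNA, had 481 and 78 counts, a log2 change of -2.40 (95% interval -2.78 to -2.07). LGALS3BP, a secreted glycoprotein, had 2214 and 658 counts, a log2 change of -1.54 (95% interval -1.67 to -1.41). Counts were too low to compare for TRIM22, an antiviral ubiquitin ligase, with 4 and 0, and for XAF1, a promoter of apoptosis, with 3 and 0. The chemokines CXCL10 and CXCL11, which draw T cells, had 2 and 0 counts respectively in MAEL WT and 0 in MAEL KO. Both libraries were thus at or under the floor of 3 counts for these chemokines.

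Sensors ranged from much lower in MAEL KO to near the MAEL WT level. Of the 8 sensors, 7 were below 0, against 52.0% of all genes, and the median was -1.33. OASL and OAS2 were at -2 or less, against 5.64% of all genes. The value of OAS2 depends on the added count, and its bound does not reach the cut-off. Among the RIG-I-like receptors, IFIH1, which encodes MDA5 and recognises long double-stranded RNA, had 602 and 209 counts, a log2 change of -1.31 (95% interval -1.55 to -1.09). DDX58, which encodes RIG-I and recognises RNA ends, had 479 and 299 counts, a log2 change of -0.47 (95% interval -0.68 to -0.26). DHX58, which encodes LGP2 and tunes the other receptors, had 32 and 31 counts. The DHX58 log2 change was 0.16 (95% interval -0.60 to 0.92) with TMM factors and -0.11 with total counts, so it had no settled direction. The intervals of IFIH1 and DDX58 do not overlap.

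Oligoadenylate synthetases make the messenger that activates RNase L, while OASL lacks that activity and binds RIG-I instead. OASL had 110 and 4 counts, a log2 change of -4.28 (95% interval -6.47 to -3.17). OAS1 had 778 and 194 counts, a log2 change of -1.79 (95% interval -2.03 to -1.56). OAS3 had 1847 and 626 counts, a log2 change of -1.35 (95% interval -1.48 to -1.22). OAS2, which lies beside OAS1 and OAS3 on chromosome 12, had 10 and 0 counts and was at least 2.88-fold lower against the floor. OASL, coded elsewhere on that chromosome, was the sensor with the lowest fold change. EIF2AK2, which encodes the kinase PKR that stops translation when it binds double-stranded RNA, had 3276 and 1894 counts, a log2 change of -0.58 (95% interval -0.66 to -0.50).

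By their median the regulators lay nearer to 0 than effectors and sensors. None of the 5 reached -2, which for so few genes is close to the 5.64% of all genes. The median over the 5 was -0.40, which is the value of IRF9 alone. Their summed normalized counts had a log2 ratio of -0.86, and of -1.18 without IRF3. For effectors these sums gave -1.16, and -1.66 without IFITM3. For sensors they gave -0.92, and -1.29 without EIF2AK2, close to the values of the regulators. The contrast with sensors therefore rests on the medians. STAT2 (ENSG00000170581, chromosome 12, 56341597 to 56360155), the subunit that brings the activation domain to the ISRE complex, had 1854 and 548 counts, a log2 change of -1.55 (95% interval -1.69 to -1.41). Its DNA-binding partner IRF9 had 115 and 75 counts, a log2 change of -0.40, and its interval of -0.85 to 0.03 included 0. IRF9 shares 5513 bases of its span with another protein-coding gene model on the same strand, so its counts are uncertain. IRF3, which is made without interferon, had 2725 and 1513 counts, a log2 change of -0.64 (95% interval -0.73 to -0.55). It shares 734 bases with BCL2L12 on the opposite strand. IRF1, which responds mainly to interferon gamma, had 254 and 173 counts, a log2 change of -0.34 (95% interval -0.63 to -0.06).

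IRF7 had the highest log2 change of the list. This factor amplifies interferon production and is itself strongly induced by interferon. It had 55 counts in MAEL WT and 75 in MAEL KO, a log2 change of 0.65 (95% interval 0.14 to 1.19), with TMM factors. With total counts its log2 change was 0.38, and the interval of -0.14 to 0.91 included 0. With TMM factors it was the 1 gene among the 41 with an interval wholly above 0, against 34.8% of all genes tested, while 36 had an interval wholly below 0, against 34.7%. With total counts these were 0 genes, against 22.5%, and 38 genes, against 49.3%, with the intervals of GBP1 and IRF9 then below 0.

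Levels per gene length are the deposited FPKM values. All 11 listed genes with at least 10 FPKM in MAEL WT were lower in MAEL KO, including IFITM3, which stayed in front. IFITM3 led in both libraries, at 277 FPKM in MAEL WT and 193 in MAEL KO. ISG15 came next, at 125 and 35.8. IFI6 had rank 3 in MAEL WT at 101 FPKM and rank 8 in MAEL KO at 8.05. BST2 went from 14.7 to 0.0943 FPKM, which took it from rank 8 to rank 35 of 48. IFITM3, ISG15 and IRF3 held at least 10 FPKM in both libraries, while other listed genes, such as IFI6 and BST2, did so in MAEL WT alone. As a share of all effector counts, IFITM3 went from 34.0% to 53.3%. Summed normalized counts of the effectors had a log2 ratio of -1.16, and of -1.66 without IFITM3.

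**Figure D3:**
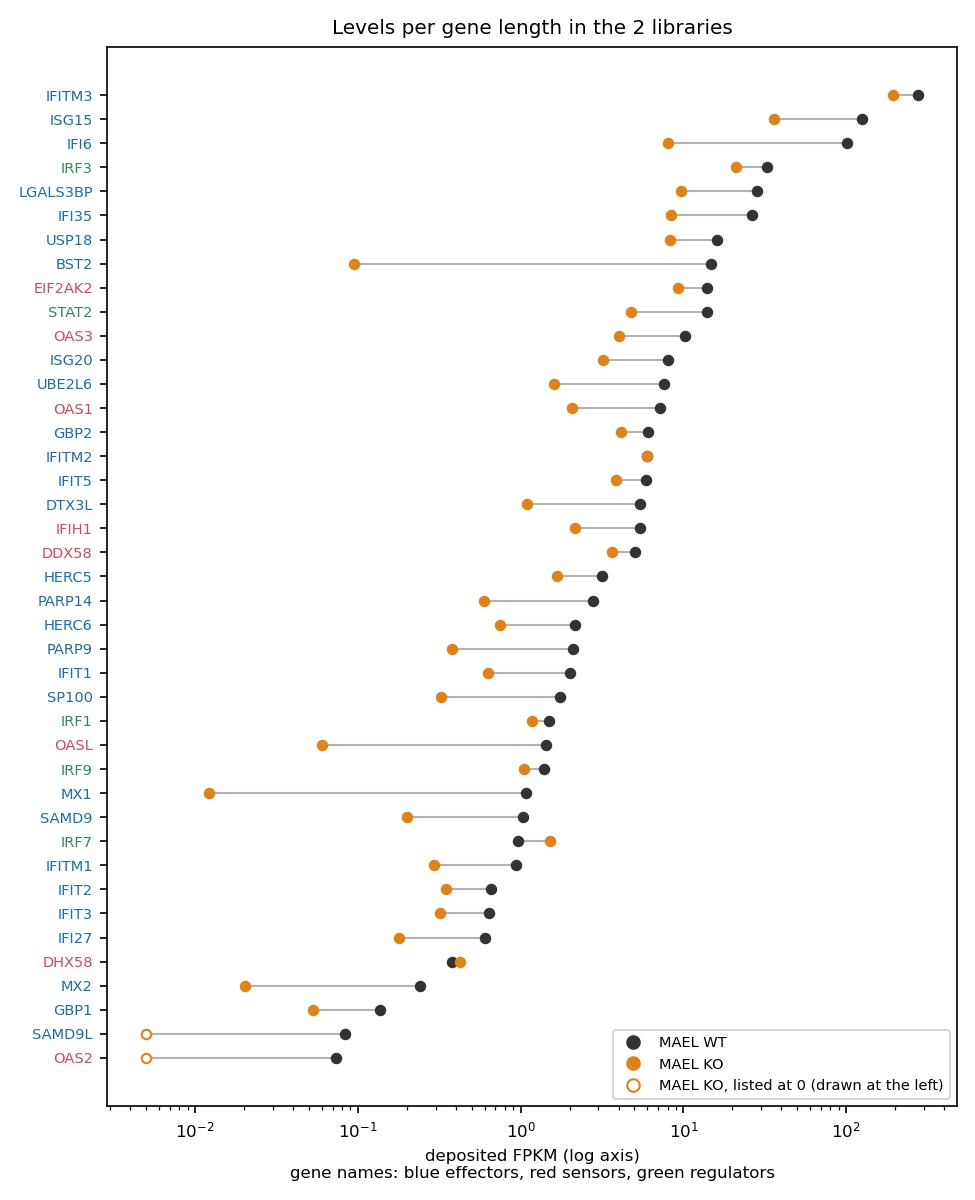
Deposited FPKM (log x axis) of the 41 genes with at least 10 counts in 1 library, in MAEL WT (black) and MAEL KO (orange), ordered by the MAEL WT level. Open circles mark genes listed at 0 in MAEL KO, and the distance between the points is longest for BST2 and MX1 among genes above 0.

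Several of these genes lie in clusters, so their neighbours were examined as well. Tested genes outside the list within 1 Mb on either side had a median log2 change of 0.20 around the IFIT genes (n = 6), 0.14 around OAS1 to OAS3 (n = 19) and -0.02 around PARP9, DTX3L and PARP14 (n = 20). Around the IFITM genes the median was -0.10 (n = 56), around the SAMD9 genes -0.21 (n = 18), around the HERC genes 0.22 (n = 14) and around the GBP genes 0.33 (n = 15). In these neighbourhoods the listed genes were lower than the surrounding median, except IFITM2, which at -0.01 lay above it. Neighbours at -2 or less numbered 3 of 56 around the IFITM genes and 2 of 20 around PARP9, DTX3L and PARP14. There were 1 of 18 around the SAMD9 genes, 1 of 15 around the GBP genes and 0 around the IFIT, OAS and HERC genes. Some neighbours of the GBP genes belong to the further list of interferon-induced genes given below. The MX genes differed, since their 11 neighbours had a median of -0.81, with 3 at -2 or less, against 5.64% of all genes. The part of that region in the level of MX1 and MX2 was not tested.

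The upstream end of the pathway showed no signal or smaller differences than the effectors. All of the 22 interferon genes except IFNL1 had 0 counts in both libraries, IFNB1 among them, and IFNL1 had 2 and 1 counts. Interferon transcripts were thus not detectable above the floor of 3 counts per library, which allows up to 0.1507 CPM in MAEL WT and 0.144 in MAEL KO. The 12 genes for receptors, JAK kinases, SOCS inhibitors and other signalling components all had enough counts. All lay within -1 and 1, while 16.5% of all genes were at -1 or less and 10.2% at 1 or more. Their median was -0.46, against -0.04 for all genes. Intervals lay wholly below 0 for 6 of them, against 34.7% of all genes, and wholly above 0 for 2, against 34.8%. Next to the median of -1.65 for effectors, this list was closer to its MAEL WT level.

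Genes for the receptors of type I interferon and of interferon gamma were near their MAEL WT level. IFNAR1, a subunit of the receptor for type I interferon, had 2034 and 2081 counts, and lay at 0.24 on the log2 scale with TMM factors and at -0.03 with total counts. Its partner IFNAR2 had 110 and 79 counts, a log2 change of -0.26 (95% interval -0.70 to 0.16). IFNGR1, the ligand-binding subunit of the receptor for interferon gamma, was the highest of this list, with 1168 and 1277 counts, a log2 change of 0.34 (95% interval 0.22 to 0.45). JAK2 was the lowest, with 98 and 44 counts, a log2 change of -0.93 (95% interval -1.49 to -0.42). SOCS1, a feedback inhibitor, had 15 and 9 counts, and its interval of -1.90 to 0.76 included 0.

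Adaptors and kinases between the sensors and IRF3 also differed little as a list. Of 20 such genes in the table, 14 had enough counts and the median was -0.19. At -2 or less there was 1 of the 14, close to the 5.64% of all genes. MAVS, the adaptor on mitochondria, had 4318 and 3113 counts, a log2 change of -0.26 (95% interval -0.33 to -0.19). TBK1, the kinase of IRF3, had 950 and 1046 counts, a log2 change of 0.35 (95% interval 0.22 to 0.48). The lowest were the ubiquitin ligases that activate RIG-I. RNF135 had 28 and 3 counts, a ratio of 8.07 (95% interval 2.49 to 41.5) in favour of MAEL WT, and TRIM25 had 5251 and 1980, a log2 change of -1.20 (95% interval -1.27 to -1.12). The highest were IKBKE at 0.54 and TANK at 0.44. Of the 5 other IRF genes, 4 had enough counts. IRF4, a factor of lymphoid cells, had 38 and 3 counts, a ratio of 10.9 (95% interval 3.47 to 55.4) in favour of MAEL WT. On the log2 scale IRF2 was at -0.75 and IRF5 at -0.61.

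A further list of genes known to be induced by interferon, outside the 48, was lower to a smaller degree. Of 49 such genes in the table, 39 had enough counts. Of these, 29 were below 0, against 52.0% of all genes, with a median of -0.65. At -2 or less there were 6, against 5.64%, and at 2 or more 0, against 2.16%. At -1 or less there were 14, against 16.5%, and at 1 or more 2, against 10.2%. DDX60, a helicase that promotes RIG-I signalling, was lowest, with 257 and 10 counts, a log2 change of -4.35 (95% interval -5.55 to -3.57). Its paralogue DDX60L came next, with 167 and 11 counts, a log2 change of -3.61 (95% interval -4.74 to -2.84). The highest was TNFSF10, which encodes the death ligand TRAIL, with 97 and 274 counts, a log2 change of 1.70 (95% interval 1.37 to 2.06). IFI30, a lysosomal reductase, followed with 3 and 10 counts, a ratio of 3.86 in favour of MAEL KO, and its log2 interval of -0.01 to 4.45 included 0. The lower level was thus not shared by every gene that interferon can induce.

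**Figure D4:**
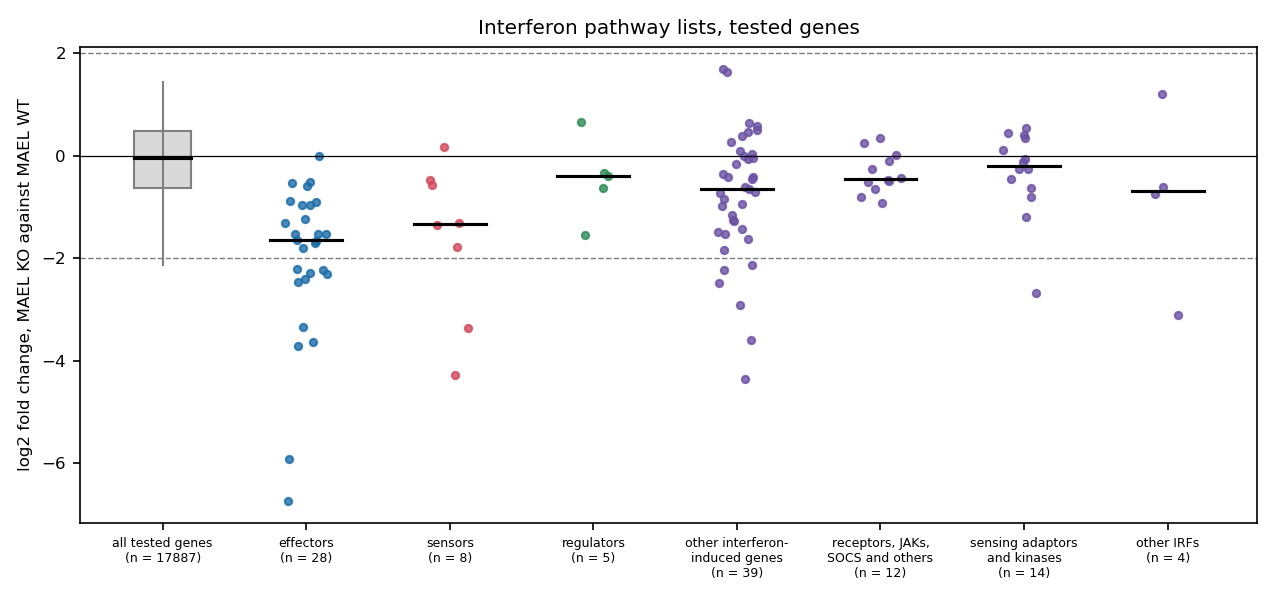
Log2 fold change (y axis) of tested genes in each list of the pathway, 1 point per gene, with the median as a black bar. For all tested genes the box shows the interquartile range and the line the 5th to 95th percentile, and dashed lines mark -2 and 2. SAMD9L and OAS2, with 0 counts in MAEL KO, are drawn at -3.71 and -3.37, which depend on the added count. Effectors and sensors have medians of -1.65 and -1.33, while the lists of receptors and of adaptors have medians of -0.46 and -0.19.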

How the data were processed

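Total RNA of 8024 cells was sequenced (HiSeq), with 1 library for each condition. The authors deposited read counts per gene, whole numbers without normalization, and FPKM values scaled by gene length and library size. The submitters' processing notes name HISAT2 2.0.5, featureCounts 1.5.0-p3 and hg19, but the coordinates are those of GRCh38, since 99.92% of the genes, and all 48 listed here, match GENCODE 29. Strand and multi-mapping settings are not given in the sources used here.

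Counts were normalized with TMM factors (edgeR 4.0.16, R 4.3.3). Other settings were DESeq2 1.42.0 size factors, total counts, the ratio of FPKM values with 0.01 added, other prior counts and other count filters. Fold changes used Python 3.11.15, NumPy 2.4.6, SciPy 1.17.1 and pandas 2.3.3, with plots in matplotlib 3.10.9. Genes that reached 10 counts in either library were called tested, although no test is possible with 1 library per condition. Total counts were 19904136 and 20833332. Reads carried no molecular identifiers and need not be separate molecules, so that intervals and floors describe counting error alone. The steps were checked on simulated data. Members and lists were chosen with earlier results of these data known. All 48 members may be named, and of each other list the 2 lowest and 2 highest genes and a few fixed genes. Some genes of the other lists that this rule names are not reported here.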

Additional observations from a re-analysis of the deposited data

How the results depend on the processing

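With 1 library per condition no library could be left out. No paired analysis was possible because each condition has 1 library. The 13 listed genes at -2 or less became 26 at a log2 threshold of 1 and ranged from 10 to 15 under the other settings, with 0 at or above the positive threshold throughout. The sensor median moved to -1.61 with total counts, a scaling that took all genes from -0.04 to -0.31. The effector and regulator medians stayed between the medians of their genes' lower and upper interval ends under every setting run. These ranges, -2.33 to -1.32 and -0.73 to -0.06, reflect single genes and are not intervals of a median. Setting genes with 0 counts in MAEL KO at their bounds was added after the data were seen. It could not move the effector and sensor medians, because SAMD9L and OAS2 stay below them at their bounds. Of 205 values of the 41 tested genes, 16 left their counting interval, all with total counts, and 1, for DHX58, changed sign. Over all genes, 1008 lower and 387 higher became 513 and 250 with 5 added to the counts, 1773 and 1029 when 1 count sufficed, 283 and 185 when 100 were required, and 2951 and 1827 when the threshold was 1. With total counts they were 1309 and 269. Depth limits statements on IFI44, IFI44L, RSAD2, TRIM22, XAF1, CXCL10 and CXCL11, all under 10 counts.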
